A study of Mus musculus with 16 samples.

Results

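An antisense oligonucleotide against Dnm2 was compared with saline in healthy mice, in the tibialis anterior (the muscle along the shin). The comparison used 8 of the 16 samples of the series, chosen by genotype and treatment from the labels: 4 wild-type mice that received the oligonucleotide ASO1 (WT_ASO) and 4 that received phosphate-buffered saline (WT_PBS). All were C57BL/6N males of 7 weeks. The remaining 8 samples came from Bin1mck-/- mice of the same strain, sex and age, 4 given ASO1 (KO_ASO) and 4 given saline (KO_PBS). They appear here for the shared estimate of spread and for values beside those of the wild type. The sources used here give neither dose nor schedule. None of the groups received a control oligonucleotide, so the lowering of Dnm2 and the injection of an oligonucleotide cannot be told apart in any difference between WT_ASO and WT_PBS.

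Dynamin 2, encoded by Dnm2, is a large GTPase that assembles around the necks of budding membrane vesicles and cuts them free, and it also works with the actin and microtubule cytoskeleton. It is present in nearly all tissues, whereas dynamin 1 and dynamin 3 are known mainly from neurons. Mutations of DNM2 cause a dominant form of centronuclear myopathy, a muscle disease in which nuclei sit in the middle of the fibre. Lowering dynamin 2 has been studied as a treatment for related forms, in which the genes for myotubularin (MTM1) or amphiphysin 2 (BIN1) are mutated, so what the same lowering does in healthy muscle is a question of its own.

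RNA sequencing gave 28672069 to 40862854 counts per wild-type sample. Of 29730 genes in the table, 14960 had enough counts to be tested, and these held at least 99.9% of the counts of any sample. The samples had the profile of fast muscle: the 14 fast sarcomere genes summed to between 141086 and 175279 CPM (a gene's counts relative to its library's scaled total) in WT_PBS and between 150729 and 206060 CPM in WT_ASO. Correlations of log2 CPM ran from 0.978 to 0.987 within the wild-type groups, and between them the range was 0.977 to 0.987. The labels do not state whether the samples of a group were prepared together, and P values measure the spread between these samples.

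Dnm2 fell, with lower values in every treated mouse than in any saline mouse. The gene lies on chromosome 9 of GRCm38, from 21424908 to 21507759 on the plus strand. Its level was 58.0, 53.4, 62.8 and 50.2 CPM in the 4 WT_PBS samples and 24.6, 23.1, 29.4 and 25.4 CPM in the 4 WT_ASO samples. Means were 56.1 ± 5.51 and 25.6 ± 2.72 CPM (SD, n = 4 each), so that 45.7% of the saline level was left. The log2 fold change (log2FC) was -1.13 with a standard error (SE) of 0.11 and a 95% interval of -1.37 to -0.89, with an adjusted *P* value of 0.000396 in edgeR's quasi-likelihood test with Benjamini-Hochberg adjustment. With 4 samples against 4, p = 0.0286 is the smallest that a two-sided exact permutation test allows, and Dnm2 reached it. Dnm2 overlaps Tmed1 on the opposite strand, and Tmed1, at 33.6 to 36.6 CPM in WT_PBS and 32.3 to 37.6 CPM in WT_ASO, had a log2FC of 0.01.

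Dnm2 also fell in the knockout mice. It read 63.1, 61.4, 67.7 and 59.1 CPM in KO_PBS and 24.4, 20.7, 22.8 and 31.1 CPM in KO_ASO. Its log2FC there was -1.34 with an SE of 0.11 (adjusted *P* = 1.72e-05 in edgeR). The difference between the genotypes was -0.21 with an SE of 0.16 and did not pass the test (edgeR interaction, adjusted *P* = 0.636).

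**Figure D1:**
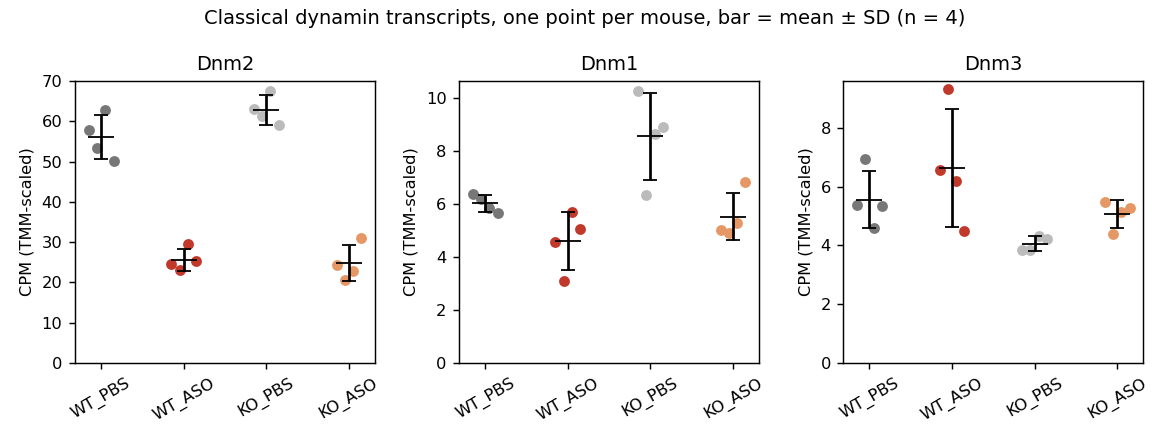
Level of the classical dynamins Dnm2, Dnm1 and Dnm3 in CPM on the vertical axis, each axis starting at 0, in the 4 groups, with 1 point per mouse and bars for the mean ± SD (n = 4). The treated samples of both genotypes lie at 20.7 to 31.1 CPM for Dnm2, under all saline samples, whereas the wild-type groups meet for Dnm1 and overlap for Dnm3.

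No other gene passed the test: Dnm2 alone, 0.00668% of the genes tested, met an adjusted *P* value under 0.05 in edgeR, the criterion for a differentially expressed gene (DEG). The second smallest adjusted *P* value was 0.131, and 18 genes had one under 0.2. Without adjustment, 965 genes had a p under 0.05, 496 of them higher in WT_ASO (3.32% of the genes tested) and 469 lower (3.14%), and the 965 were 554 without WT_PBS_4. These shares, 3.32% and 3.14%, are the background for every count of list members at an unadjusted p under 0.05 that follows. The 4 treated and 4 saline values did not overlap for 269 genes that were higher (1.80%) and 213 that were lower (1.42%). DESeq2, run on the same counts, called 35 genes at an adjusted *P* value under 0.05, 0.187% of the genes to which it gave an adjusted value, with 19 higher and 16 lower. In the text that follows, only Dnm2 is said to have changed by edgeR, and other genes are given by their values.

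The other two classical dynamins had low levels in both groups. Per kilobase of exon, Dnm2 went from 10.5 ± 1.03 to 4.81 ± 0.511 RPKM (CPM divided by the exon length in kilobases; SD, n = 4). Dnm1, the dynamin of synaptic vesicle recycling, was at 1.15 ± 0.0605 RPKM with saline and 0.877 ± 0.212 RPKM with ASO1. Dnm3 was at 0.227 ± 0.0401 and 0.272 ± 0.0820 RPKM. The sum of the 3 transcripts was 11.9 RPKM in WT_PBS and 5.96 RPKM in WT_ASO, and Dnm2 was 88.4% of the first sum and 80.7% of the second. The exon length was 5249 bases for Dnm1, 5330 for Dnm2 and 24452 for Dnm3, so these shares depend on the annotation. In CPM the WT_PBS means of Dnm1 and Dnm3 were 6.02 and 5.56. The log2FC of Dnm1 was -0.39 (95% interval -0.76 to -0.01), with samples at 5.67 to 6.38 CPM in WT_PBS and 3.10 to 5.71 CPM in WT_ASO. That of Dnm3 was 0.26 (-0.12 to 0.64). Neither passed the test, with adjusted *P* values of 0.763 and 0.853 in edgeR. In the knockout the log2FC was -0.63 (SE 0.18) for Dnm1 and 0.32 (SE 0.18) for Dnm3. Their adjusted *P* values there were 0.0553 and 0.390 in edgeR.

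The wider dynamin superfamily also held no call. Of 16 dynamin-like GTPases, which shape caveolae, mitochondria or the endoplasmic reticulum or act in antiviral defence, 13 had a 95% interval wholly inside a 2-fold change. The smallest p was that of Ehd2, an ATPase at the neck of caveolae, at 87.0, 79.2, 100.5 and 101.8 CPM in WT_PBS and 68.5, 56.1, 67.3 and 89.0 CPM in WT_ASO. Its log2FC was -0.39 with an SE of 0.16 and an adjusted *P* of 0.744 in edgeR. For the mitochondrial fission GTPase Dnm1l the log2FC was -0.15 (-0.36 to 0.06), and for the fusion GTPases it was -0.13 (-0.27 to 0.01) for Opa1, -0.07 (-0.28 to 0.14) for Mfn1 and 0.02 (-0.19 to 0.24) for Mfn2.

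Partners of dynamin in endocytosis and membrane curvature showed no common direction. Of 38 members tested, 36 had an interval inside a 2-fold change and 34 inside a 1.5-fold change, and their median log2FC was 0.01 beside 0.0040 for all genes. Clathrin heavy chain, Cltc, had a log2FC of -0.01 (-0.22 to 0.20). The AP-2 adaptor subunit Ap2b1 had 0.03 (-0.12 to 0.18), and Snx9, a curvature protein that recruits dynamin, had 0.01 (-0.14 to 0.17). Only Pacsin3, a muscle BAR-domain protein, had a p under 0.05. Its values were 274, 294, 283 and 214 CPM in WT_PBS and 284, 294, 383 and 299.95 CPM in WT_ASO, so the groups overlapped (log2FC 0.24, SE 0.10, adjusted *P* = 0.756 in edgeR).

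Genes of centronuclear myopathy other than Dnm2 also differed little. All 13 that were tested had intervals inside a 1.5-fold change. Bin1 read 475, 554, 487 and 463 CPM with saline and 479, 533, 619.8 and 524 CPM with ASO1, a log2FC of 0.12 (-0.10 to 0.35). Mtm1, the phosphoinositide phosphatase myotubularin, read 16.5, 17.4, 15.4 and 18.5 CPM and then 17.8, 18.5, 12.1 and 14.7 CPM, a log2FC of -0.10 (-0.35 to 0.14). Both pairs of groups overlapped. The calcium release channel gene Ryr1 had a log2FC of 0.05 (-0.21 to 0.31), and the member with the smallest p was Mtmr14, another phosphoinositide phosphatase, at 0.28 (0.06 to 0.50, adjusted *P* = 0.736 in edgeR).

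These intervals can be read over the whole table as the size of change that the 8 mice allow. For 12281 genes (82.1% of those tested) the 95% interval of the log2FC lay inside a 2-fold change in either direction, and for 8884 (59.4%) it lay inside a 1.5-fold change. The bound depended on expression. It held at 2-fold for 32.0% of genes under 1 CPM, 87.6% of those from 1 to 10 CPM, 97.2% from 10 to 100 CPM and 97.9% at 100 CPM and over. Dnm2 was 1 of 209 genes whose estimate was beyond 2-fold, and 147 of those 209 were under 1 CPM. A bound limits the size of a change and does not show that a gene kept its level.

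**Figure D2:**
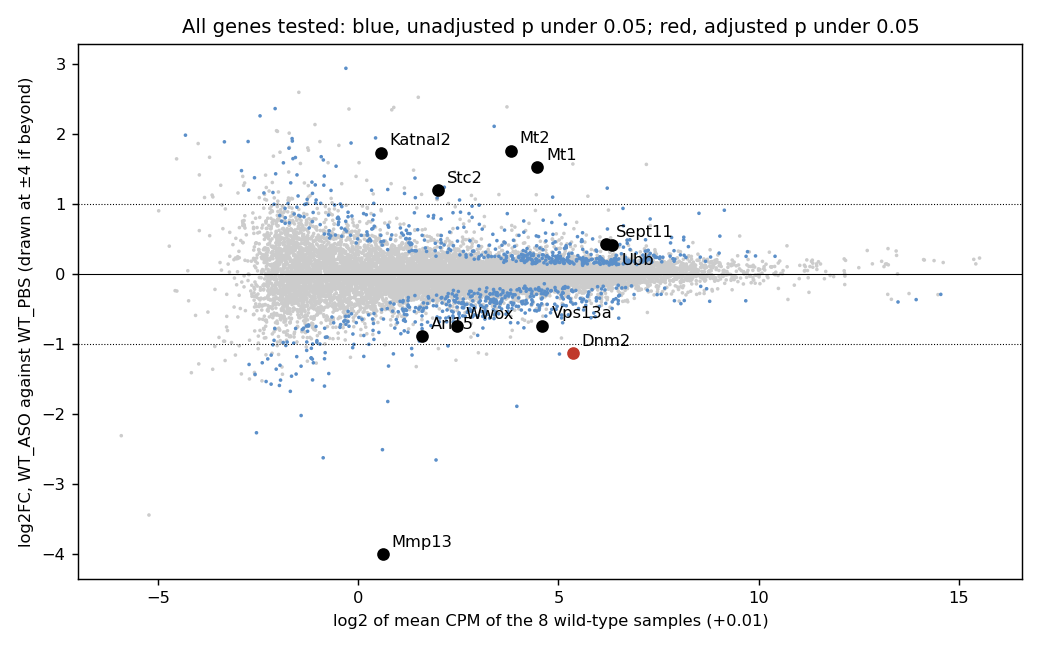
Each of the 14960 genes tested by the log2 of its mean CPM over the 8 wild-type samples (horizontal, 0.01 added) and its log2FC, WT_ASO against WT_PBS (vertical, drawn at ±4 if beyond), with dotted lines at a 2-fold change. Blue marks an unadjusted p under 0.05 and red the only gene under 0.05 after adjustment, Dnm2 at -1.13; black points are other genes described in the text, of which Mmp13 lies beyond the lower edge.

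The machinery of contraction and metabolism held no edgeR call in either direction. Fast sarcomere genes had a median log2FC of 0.21 over 14 members and slow sarcomere genes 0.06 over 12, with 0 members at an unadjusted p under 0.05 in both lists, but the interval fell inside 2-fold for 13 fast members and for just 3 slow ones. The fast count of 0 was 4 without WT_ASO_1, 4 without WT_PBS_2 and 3 without WT_ASO_4, all higher, and the fast median was 0.12 without WT_ASO_3. The slow median ran from -0.18 to 0.36 when 1 library was left out. The 28 subunits of oxidative phosphorylation had a median of -0.03 (-0.07 to 0.04 when 1 library was left out), and all 28 intervals were inside 2-fold. All 18 glycolysis and glycogen genes were inside 2-fold as well (median 0.13), and 16 of 17 genes of fatty acid use (median -0.07). Without WT_ASO_1 the glycolysis list had 2 higher members, as it had without WT_ASO_4, and fatty acid use had 3 lower. The median ran from 0.055 to 0.18 for glycolysis when 1 library was left out, and for fatty acid use it ran from -0.21 without WT_ASO_1 to 0.04 without WT_ASO_2. Of 30 genes of the triad, the membrane junction where excitation meets calcium release, 28 were inside 2-fold, and 2 were higher at an unadjusted p under 0.05, beside 3.32% of all genes, a count that was 8 without WT_PBS_2 and 1 without WT_PBS_4. The triad gene with the smallest p was Cacng1, a subunit of the voltage-gated calcium channel, at 184, 232, 183 and 145 CPM in WT_PBS and 246, 342, 287 and 196 CPM in WT_ASO (log2FC 0.53, SE 0.15, adjusted *P* = 0.643 in edgeR). The treated and saline values of Cacng1 overlapped. Estimates were positive for 12 of 14 fast sarcomere, 9 of 12 slow sarcomere, 15 of 18 glycolysis and 25 of 30 triad genes. They were negative for 14 of 17 genes of fatty acid use and 20 of 28 oxidative phosphorylation subunits.

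Genes that sense or take up foreign nucleic acid showed no common direction. The 26 tested members of that list had a median log2FC of 0.00, 0 higher and 1 lower at an unadjusted p under 0.05. The lower one, Stab1, a scavenger receptor, read 28.7, 20.6, 24.3 and 29.0 CPM with saline and 21.8, 12.8, 19.4 and 22.0 CPM with ASO1. The list had 0 lower members without WT_ASO_2, WT_ASO_3, WT_PBS_1 or WT_PBS_4. Without WT_PBS_2 it had 2 lower and 1 higher. Rnaseh1, the nuclease that cuts RNA paired with a DNA-like oligonucleotide, had a log2FC of -0.02 (-0.28 to 0.23). Of 19 genes of the type I interferon response, 2 were higher and 1 lower at an unadjusted p under 0.05, beside 3.32% and 3.14% of all genes (median 0.03). The higher count was 0 without WT_PBS_1, without WT_PBS_4 or with library totals as the only scaling, and the median ran from -0.08 to 0.15 when 1 library was left out. Ifit1 was at a log2FC of 0.51 (0.07 to 0.95) and Mx2 at 0.56 (0.01 to 1.11). Cxcl9, an interferon-induced chemokine, was at 2.95, 2.12, 2.18 and 2.78 CPM in WT_PBS and 1.21, 0.608, 0.880 and 1.86 CPM in WT_ASO, groups that did not overlap. Its adjusted *P* was 0.56 in edgeR.

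Markers of other cell types and of damage gave wider intervals. The 20 macrophage and myeloid genes had a median log2FC of 0.22 with 0 members at an unadjusted p under 0.05, and only 5 intervals were inside 2-fold. They summed to 66.7 to 102 CPM in WT_PBS and 64.2 to 142 CPM in WT_ASO. Just 3 of 13 lymphocyte and neutrophil markers had enough counts to be tested. The 24 genes of the extracellular matrix and fibroblasts summed to 2389 to 2780 CPM with saline and to 1284 to 3814 CPM with ASO1, a wider spread in the treated mice, with a median of -0.18 and 2 members lower at an unadjusted p under 0.05. Leaving out 1 library moved this median between -0.38 (without WT_ASO_4) and -0.0082 (without WT_ASO_1), and that of the macrophage list between 0.03 (without WT_ASO_3) and 0.45 (without WT_PBS_1). Satellite cell and myogenic factors (18 tested, median 0.09) had 1 lower member at that threshold, Pax7, the transcription factor of the stem cells of muscle, at 3.69 to 5.36 CPM and 2.78 to 3.46 CPM in the respective groups. That lower count was 0 without WT_ASO_1, WT_ASO_2, WT_ASO_4, WT_PBS_2 or WT_PBS_3, and without WT_PBS_2 there were 2 higher members. Tendon markers (6 tested, median 0.03, -0.19 to 0.32 when 1 library was left out) had 0 such members. Nerve and Schwann cell markers (8 tested, median 0.45) had 1, Ngfr. These markers had 0 such members without WT_ASO_2, WT_ASO_3, WT_PBS_2, WT_PBS_3 or WT_PBS_4. Their median was -0.01 without WT_ASO_4, in which they summed to 156 CPM beside 60.9 to 68.9 CPM in the other treated samples. The p53 target genes (16 tested, median 0.12) had 2 higher and 1 lower, beside 3.32% and 3.14% of all genes. The 2 higher members were 1 without WT_ASO_1, WT_ASO_2, WT_PBS_2 or WT_PBS_4, and 4 without WT_ASO_4. The integrated stress response and chaperones (22 tested, median 0.00) had 2 higher members, among them Xbp1, the stress-induced transcription factor, at 49.3 to 52.0 CPM in WT_PBS and 56.4 to 69.9 CPM in WT_ASO. This list had 1 higher member without WT_ASO_2, WT_ASO_3, WT_PBS_2 or WT_PBS_4, and 3 without WT_ASO_4.

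Genes whose groups did not overlap and whose mean was at least 1 CPM in a group were ranked by p. The 24 with the smallest p among them, 12 in each direction, were all called by DESeq2. Only Dnm2 was called by edgeR. The adjusted *P* values of the remaining 23 ran from 0.131 to 0.35 in edgeR, so the following are levels of genes that did not pass that test.

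Ubb and Ube4a were among the 12 higher genes. Ubb, a polyubiquitin gene, was at 69.1, 72.4, 71.4 and 65.6 CPM in WT_PBS and 84.6, 107, 90.4 and 88.3 CPM in WT_ASO (log2FC 0.41, SE 0.08). Ube4a, a ubiquitin chain elongation factor, was at 42.3, 40.0, 36.2 and 43.1 CPM and then 59.3, 64.2, 47.9 and 52.8 CPM (0.47, SE 0.10). In both genes the spread of the treated samples was wider than that of the saline samples.

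Sept11 had the smallest p of the higher genes. It encodes a septin, a GTP-binding protein of cytoskeletal filaments, and read 65.5, 64.7, 60.5 and 59.4 CPM with saline and 82.6, 90.2, 88.1 and 75.7 CPM with ASO1 (log2FC 0.43, SE 0.08, adjusted *P* = 0.131 in edgeR and 0.000806 in DESeq2). Stc2, a secreted glycoprotein, was at 2.37, 2.87, 2.02 and 2.38 CPM and then 4.71, 8.04, 5.59 and 3.86 CPM (1.21, SE 0.24). Abcc8, the sulfonylurea receptor of a potassium channel, was at 2.16 to 2.91 CPM and 3.86 to 7.07 CPM (1.09, SE 0.22). Katnal2, related to the microtubule-severing enzyme katanin, was at 0.502 to 1.08 CPM and 1.43 to 3.01 CPM (1.74, SE 0.36), the largest estimate of the 12. The other higher genes had estimates between 0.31 for Aldh7a1, an enzyme of lysine breakdown, and 1.53 for Mt1.

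Vps13a had the smallest p after Dnm2. It encodes a lipid transfer protein of membrane contact sites and was at 27.1, 28.05, 30.4 and 35.4 CPM in WT_PBS and 16.9, 22.0, 15.6 and 18.4 CPM in WT_ASO (log2FC -0.73, SE 0.13, adjusted *P* = 0.131 in edgeR and 0.000806 in DESeq2). Wwox, an oxidoreductase with WW domains, was at 6.32, 6.85, 7.11 and 7.27 CPM and then 3.60, 4.46, 3.49 and 4.89 CPM (-0.74, SE 0.14). Arl15, a small GTPase related to the ARF family, was at 4.12, 4.40, 3.09 and 4.06 CPM and then 1.54, 2.08, 1.94 and 2.92 CPM (-0.88, SE 0.18). In all 3 genes every treated value sat under every saline value, for Arl15 by a narrow gap. Also among the 12 lower genes were Dlc1 (-0.51, SE 0.11), the polarity protein Pard3b (-0.59, SE 0.11), the receptor phosphatase Ptprg (-0.55, SE 0.12) and the adhesion molecules Ceacam1 (-0.62, SE 0.15) and L1cam (-0.83, SE 0.20).

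Mmp13, a collagenase of cartilage and bone, had 80, 2, 159 and 223 counts in the 4 WT_PBS samples and 0 in each WT_ASO sample. Its mean of 3.03 CPM was at least 135-fold lower in WT_ASO, against a floor of 3 counts over the group. A pair of genes left out by edgeR's filter, Ibsp (35, 0, 86 and 171 counts with saline) and Tnn (92, 0, 135 and 181 counts), were also at 0 in all WT_ASO samples and were called by DESeq2. They encode proteins of the bone matrix and of connective tissue, and they were chosen after their values were seen. High values of all 3 genes thus stood in the same 3 saline libraries, while WT_PBS_2 had at most 2 counts. In the knockout groups the highest count was 13 for Mmp13, 5 for Ibsp and 10 for Tnn. A list of 14 bone and cartilage markers, also drawn up after the values were seen, summed to 7.97 to 19.5 CPM in WT_PBS and 5.50 to 10.3 CPM in WT_ASO. Of its 8 tested members 0 were higher and 3 lower at an unadjusted p under 0.05, beside 3.32% and 3.14% of all genes, among them Mmp9, a gelatinase, at 0.556, 0.559, 1.06 and 1.504 CPM with saline and 0.0655, 0.145, 0.213 and 0.167 CPM with ASO1. The count of 3 was 2 without WT_ASO_2, WT_ASO_3, WT_PBS_3 or WT_PBS_4, and 0 of the 2 members that had a mean of at least 1 CPM. The list median was -0.78, and -0.42 without WT_PBS_4. Mmp13 and Mmp9 are members of that list themselves, and the part of bone or cartilage tissue in these values was not tested.

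The metallothionein genes Mt1 and Mt2 encode small proteins that bind zinc and copper, and their transcription is known to respond to metals through short metal response elements and to glucocorticoid hormones. They lie close together on chromosome 8, on the plus strand. Their promoters are shown because both genes had higher values in every treated mouse. The 250 bases before the RefSeq start (GRCm38.p6) are chr8:94178839-94179088 for Mt1 and chr8:94172368-94172617 for Mt2. Capitals mark matches to the core of the metal response element, TGCACNC or TGCGCNC, on either strand.
Mt1: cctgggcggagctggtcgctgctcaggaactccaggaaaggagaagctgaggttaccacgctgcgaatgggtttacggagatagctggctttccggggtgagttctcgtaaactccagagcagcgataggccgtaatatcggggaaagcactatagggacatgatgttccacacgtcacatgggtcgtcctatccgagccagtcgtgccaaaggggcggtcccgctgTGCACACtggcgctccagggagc
Mt2: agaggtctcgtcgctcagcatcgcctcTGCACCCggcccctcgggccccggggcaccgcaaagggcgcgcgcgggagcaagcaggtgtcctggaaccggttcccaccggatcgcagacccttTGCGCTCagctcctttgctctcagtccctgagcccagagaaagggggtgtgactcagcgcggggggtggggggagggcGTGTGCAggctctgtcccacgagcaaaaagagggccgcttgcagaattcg
The window of Mt2 held 3 matches and that of Mt1 held 1. Of 32817 promoter windows of the same length, 21.4% held at least 1 match and 5.18% at least 2, so a match in itself is common. Both windows end before further annotated starts in GENCODE, which lie 122 and 152 bases downstream for Mt1 and 46 and 242 bases downstream for Mt2, and bases beyond the window were not searched. A match is a description of the letters and not of binding.

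Mt1 was at 11.99, 8.12, 13.0 and 12.4 CPM in WT_PBS and 27.6, 49.4, 38.2 and 16.5 CPM in WT_ASO, a log2FC of 1.53 with an SE of 0.33 and an adjusted *P* of 0.215 in edgeR and 0.00155 in DESeq2. Mt2 was at 6.23, 5.51, 5.06 and 8.45 CPM and then 18.2, 28.1, 29.4 and 10.6 CPM, a log2FC of 1.77 with an SE of 0.43 and an adjusted *P* of 0.435 in edgeR and 0.034 in DESeq2. The groups did not overlap for either gene, and WT_ASO_4 was the lowest treated sample for both. The other 13 genes of metallothioneins and zinc transport that were tested had 0 members at an unadjusted p under 0.05. The metal-sensing factor Mtf1 had a log2FC of 0.02 (-0.14 to 0.17), and the zinc exporter Slc30a1 had -0.22 (-0.66 to 0.23).

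Mt1 and Mt2 also belong to a list of 23 genes known to respond to glucocorticoids or fasting, of which 13 were higher and 0 lower at an unadjusted p under 0.05, beside 3.32% of all genes. Its median log2FC was 0.41. None of the 23 passed edgeR's test after adjustment. Fkbp5, a co-chaperone of the glucocorticoid receptor, read 47.3, 72.1, 95.1 and 53.1 CPM in WT_PBS and 99.6, 193, 121 and 101 CPM in WT_ASO (log2FC 0.94, SE 0.41, adjusted *P* = 0.756). Tsc22d3, also called glucocorticoid-induced leucine zipper, read 221, 278, 225 and 193 CPM and then 322, 428, 305 and 270 CPM (0.53, SE 0.18). Glul, glutamine synthetase, read 161, 292, 325 and 253 CPM and then 401, 735, 378 and 373 CPM (0.87, SE 0.35). WT_ASO_2 was the highest sample for all 3 genes, which were picked after their values were seen. The count of 13 was 7 without WT_PBS_4, 5 without WT_ASO_2 and 7 without WT_ASO_3. Clock genes, several of which glucocorticoids also move, had 0 of 19 members at an unadjusted p under 0.05 (median -0.02, and -0.0079 to 0.09 when 1 library was left out). Per1, at a log2FC of 0.41, is in both the clock and the glucocorticoid list. Of 23 immediate early genes 1 was higher and 1 lower (median -0.16, and -0.23 to 0.04 when 1 library was left out). The higher one was Zfp36, an RNA-binding protein that destabilises inflammatory transcripts, at 15.7 to 26.8 CPM and 24.7 to 63.4 CPM. Lower immediate early genes numbered 3 without WT_PBS_1, 2 without WT_ASO_3, WT_ASO_4 or WT_PBS_4, and 0 without WT_PBS_3. Higher ones numbered 0 without WT_ASO_2.

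Of 37 tested subunits of the proteasome, the protease that degrades ubiquitin-tagged proteins, 16 were higher and 0 lower at an unadjusted p under 0.05, beside 3.32% and 3.14% of all genes, and 34 had a positive log2FC. In 11 the groups did not overlap with higher values after ASO1, beside 1.80% of all genes. The median was 0.16, and all 37 intervals were inside a 2-fold change. Psmd4, a ubiquitin receptor of the proteasome, was at 146, 142, 144 and 130.2 CPM in WT_PBS and 164, 181, 188 and 159 CPM in WT_ASO (log2FC 0.30, SE 0.07, adjusted *P* = 0.323 in edgeR and 0.00848 in DESeq2). The ATPase subunit Psmc1 was at no more than 104 CPM with saline and at no less than 112 CPM with ASO1 (0.20, SE 0.06). The summed level of the 37 subunits was 3203 to 3427 CPM with saline and 3565 to 3937 CPM with ASO1. None of the 37 passed edgeR's test after adjustment. This list was drawn up after the values were seen, and its count of 16 was 10 without WT_PBS_4 and 9 with library totals as the only scaling.

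Of 25 genes of atrophy and autophagy, 7 were higher and 0 lower at an unadjusted p under 0.05, beside 3.32% and 3.14% of all genes, with 24 positive and a median of 0.17. None passed edgeR's test after adjustment, and the list summed to 3066 CPM in WT_ASO_4, under the 3074 to 3244 CPM of the saline samples. The muscle ubiquitin ligase Trim63 was at 280, 274, 257 and 239 CPM with saline and 357, 437, 393 and 191 CPM with ASO1. Fbxo32, the other main ligase of muscle atrophy, was at 305, 119.9, 265 and 240 CPM and then 359, 336, 370 and 243 CPM. Groups overlapped in both, with WT_ASO_4 the lowest treated sample. Ctsl, a lysosomal protease, had the smallest p of the list, at a log2FC of 0.24 (SE 0.09, adjusted *P* = 0.736 in edgeR). The count of 7 was 3 without WT_PBS_1, 2 without WT_PBS_4 and 2 without WT_ASO_2. Cytosolic ribosomal protein genes, a list also drawn up after the values were seen, had 6 of 74 members higher and 0 lower (median 0.11), beside the same shares of all genes, a count that was 2 without WT_PBS_4, 10 without WT_PBS_1, 11 without WT_PBS_3 and 2 with library totals as the only scaling. It was 3 with the wild-type samples alone and 9 with a replicate block, and the median ran from 0.06 to 0.15 when 1 library was left out.

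Of 21 developmental and denervation genes, 5 were higher and 0 lower at an unadjusted p under 0.05, beside 3.32% and 3.14% of all genes, with a median of 0.30. The smallest p was that of Sox11, a developmental transcription factor, at 0.0585, 0.0372, 0.0519 and 0.0752 CPM in WT_PBS and 0.131, 0.231, 0.243 and 0.278 CPM in WT_ASO, levels of a few counts per library. The acetylcholine receptor subunit Chrna1, which rises on denervation, had a log2FC of 0.40 (-0.05 to 0.85). The count of 5 was 3 without WT_PBS_2, WT_ASO_1 or WT_ASO_4.

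Of 14 blood and vessel markers, 8 had a negative and 6 a positive log2FC, and 0 passed the test. Of the 14, 0 were higher and 5 lower at an unadjusted p under 0.05, beside 3.14% of all genes, with a list median of -0.20 that ran from -0.29 to -0.07 when 1 library was left out. Myh11, the smooth muscle myosin, was at 61.1, 42.8, 56.8 and 57.1 CPM with saline and 52.8, 37.6, 37.1 and 38.7 CPM with ASO1 (log2FC -0.39, SE 0.12, adjusted *P* = 0.679 in edgeR). Rgs5, a pericyte gene, was at 552, 464, 489 and 483 CPM and then 438, 362, 275 and 448 CPM (-0.38, SE 0.15), without overlap. The other 3 were Acta2, Tagln and Kdr, the receptor of vascular endothelial growth factor on endothelium. The general endothelial marker Pecam1 had -0.16 (-0.48 to 0.15), and haemoglobin genes had positive estimates with wide intervals. In bulk muscle, fewer cells of a type and less RNA per cell cannot be told apart. The summed level of the 14 markers was 939 to 1220 CPM in WT_PBS and 788 to 1085 CPM in WT_ASO. The count of 5 was 2 without WT_PBS_1, 3 without WT_PBS_3, 2 without WT_PBS_4, 2 without WT_ASO_2, 1 without WT_ASO_3 and 3 with the wild-type samples alone.

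Caveolae, the small membrane pits that are abundant on endothelium and on muscle fibres, had 3 lower members and 1 higher among 9 at that threshold, beside 3.14% and 3.32% of all genes. Their median was -0.22 and ran from -0.31 to -0.13 when 1 library was left out. The lower count was 2 without WT_ASO_1, WT_ASO_2, WT_ASO_3, WT_PBS_3 or WT_PBS_4, and 4 without WT_ASO_4. The higher count was 0 without WT_ASO_3 or WT_PBS_4. The lower ones were Cavin2, Cav2 and Ehd2. Cavin2, a coat protein of caveolae, was at 71.3, 62.2, 73.5 and 85.2 CPM with saline and 56.8, 40.3, 38.8 and 56.1 CPM with ASO1 (log2FC -0.61, SE 0.15, adjusted *P* = 0.435 in edgeR), without overlap. The muscle forms Cav3 and Cavin4 had estimates of 0.15 (-0.20 to 0.49) and 0.17 (-0.12 to 0.47). The higher member, Pacsin3, is the BAR-domain gene already described.

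Transcripts of the mitochondrial genome were at lower values in most treated mice. Their sum was 103111, 94522, 95524 and 124312 CPM in WT_PBS and 88133, 87935, 62579 and 95754 CPM in WT_ASO, so WT_ASO_4 overlapped the saline range. Of 19 tested, 17 had a negative log2FC (median -0.36), and 6 were lower and 0 higher at an unadjusted p under 0.05, beside 3.14% and 3.32% of all genes. mt-Nd2, a subunit of respiratory complex I, was at 12459, 11898, 11323 and 16326 CPM with saline and 9673, 10763, 8001 and 11139 CPM with ASO1 (log2FC -0.39, SE 0.14, adjusted *P* = 0.736 in edgeR). The list was drawn up after the values were seen. Its count of 6 was 4 without WT_PBS_1, 1 without WT_PBS_4, 9 without WT_ASO_2, 2 without WT_ASO_3, 9 without WT_ASO_4, 4 with the wild-type samples alone and 9 with a replicate block. Its median was -0.22 without WT_PBS_4. The nuclear-encoded subunits of oxidative phosphorylation, with 0 members at that threshold, are given above.

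Adipocyte markers varied among the treated mice. Adipoq, the adipocyte hormone adiponectin, was at 1.32, 1.90, 1.14 and 1.103 CPM in WT_PBS and 9.88, 0.984, 2.22 and 2.196 CPM in WT_ASO, so WT_ASO_1 stood out. The 8 adipocyte markers tested had a median log2FC of 1.29 with 0 members at an unadjusted p under 0.05. That count was 1 without WT_ASO_2, and 3 of the 7 tested with the wild-type samples alone. Their summed level was 213 to 302 CPM in WT_PBS and 167 to 358 CPM in WT_ASO, and leaving out 1 library at a time moved the median between 0.11 and 1.61. Their part in the other results was not tested.

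**Figure D3:**
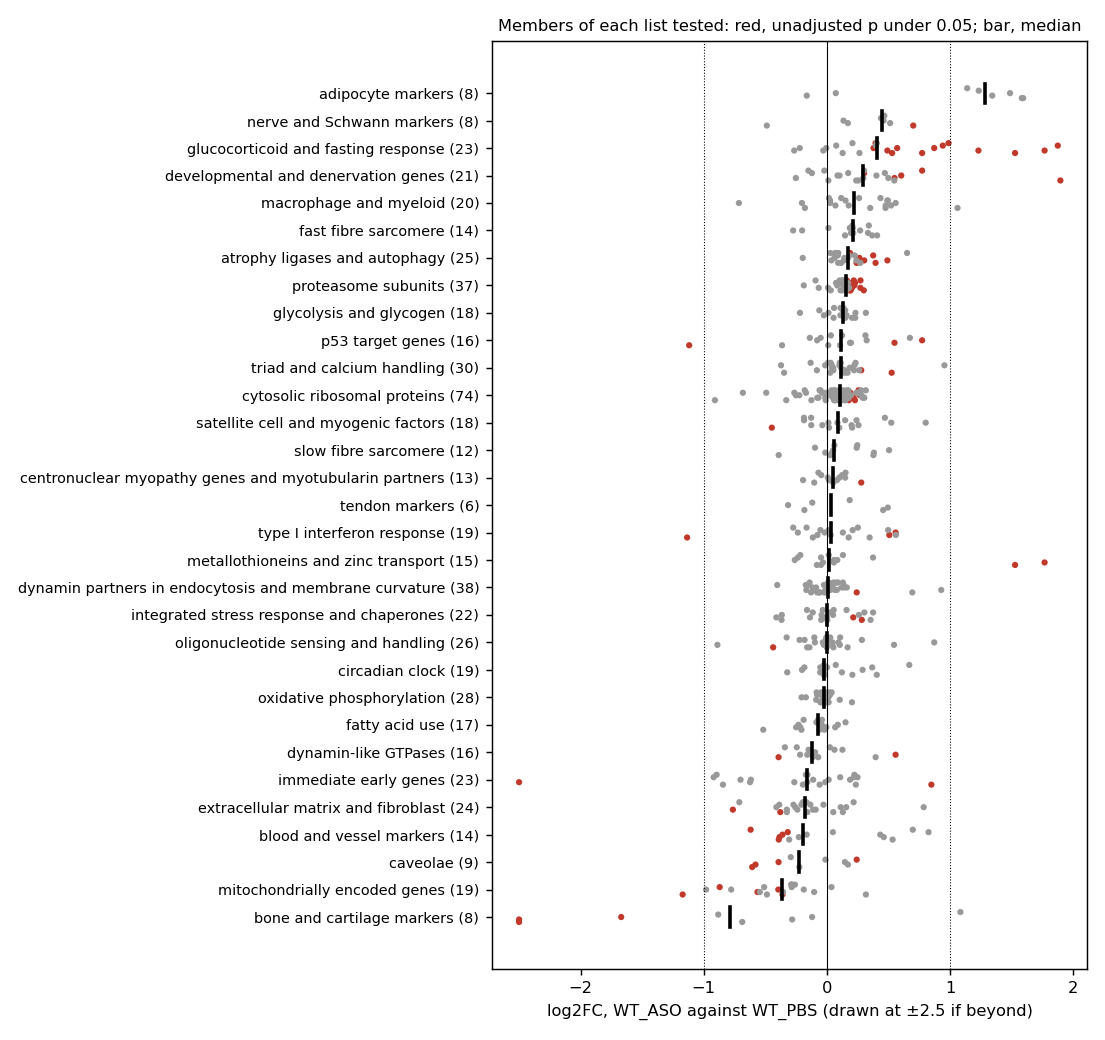
The log2FC, WT_ASO against WT_PBS, of each tested member of 31 gene lists with at least 5 members tested (horizontal, drawn at ±2.5 if beyond), 1 list per line with the number tested in brackets; black bars are medians, red points have an unadjusted p under 0.05 and dotted lines mark a 2-fold change. The glucocorticoid and fasting list holds 13 red points, all above 0, the proteasome list holds 16 close to its median of 0.16, and the lists of oxidative phosphorylation and fast and slow sarcomere hold 0.

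**Figure D4:**
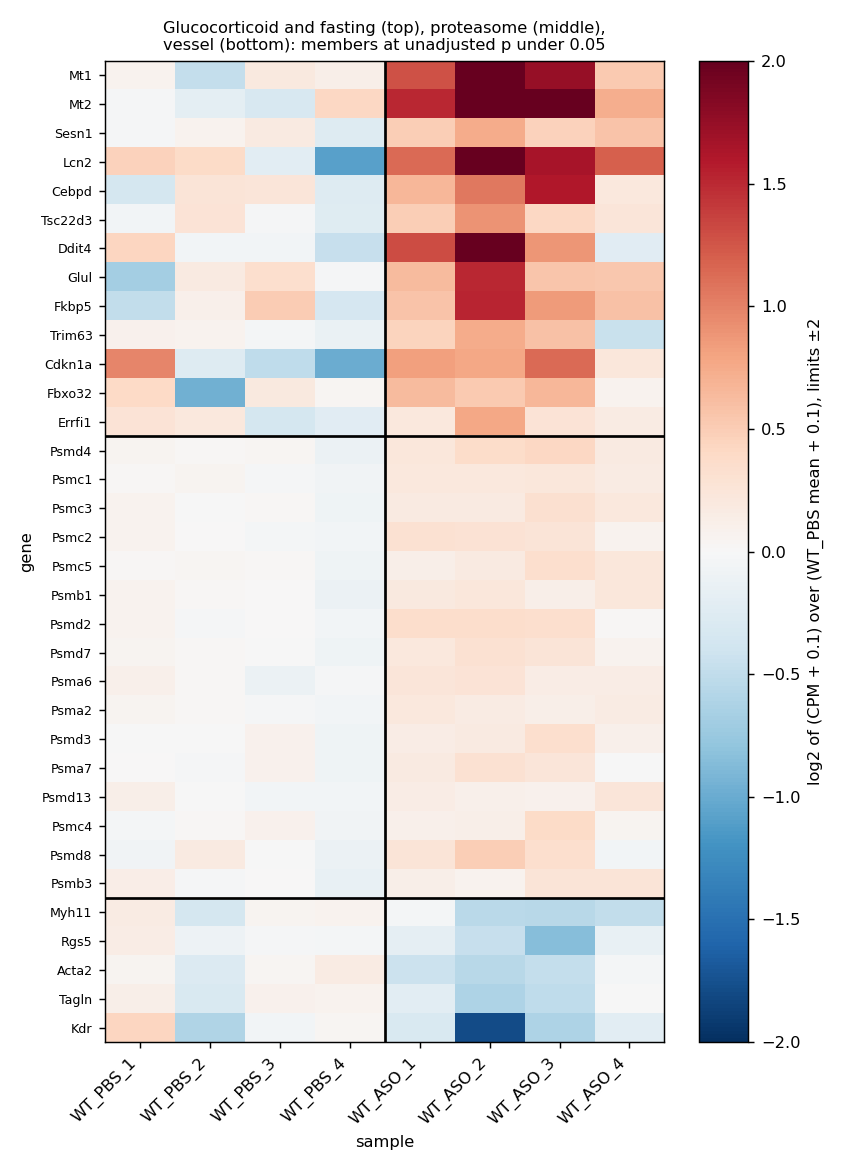
Values in the 8 wild-type samples (columns) of members with an unadjusted p under 0.05 in 3 lists (13 glucocorticoid and fasting, 16 proteasome and 5 vessel genes), as the log2 of CPM + 0.1 over the WT_PBS mean + 0.1, with colours limited to ±2. The genes were chosen for that p, so the picture shows which mice carry the difference: WT_ASO_2 has the deepest colours in most glucocorticoid genes and WT_ASO_4 is often the palest treated sample.

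Genes that had lower values after ASO1 spanned more of the genome than the higher ones. From first to last annotated base, the 12 lower genes had a median span of 129 kb and ran from 10.8 kb for Mmp13 to 1003 kb for Pard3b. The 12 higher genes had a median of 52.9 kb, and all genes tested had one of 21.4 kb. Over all genes tested, the median log2FC was 0.04 for spans under 10 kb, where 186 genes were higher and 77 lower at an unadjusted p under 0.05. It was -0.10 for the 127 genes spanning over 500 kb, of which 1 was higher and 18 lower. Of these longest genes, 69.3% had a negative log2FC. In the knockout the same 127 genes had a median of -0.12, with 61.4% negative. As a description across genes, which are not independent and share the libraries, the Spearman correlation of span with log2FC was -0.165 in wild type and 0.0193 in the knockout. Span also went with expression (Spearman correlation 0.212 with mean log2 CPM), and its part in these values was not tested.

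The knockout mice gave a second set of 8 samples, none shared with the wild-type comparison. There edgeR called 544 genes (3.64%). Of the 24 genes named above, 13 had the same sign in the knockout, 6 of the higher and 7 of the lower, and 3 were also called there by edgeR: Dnm2, Wwox and Arl15. Wwox was at a log2FC of -0.69 (SE 0.14, adjusted *P* = 0.0105) in the knockout, beside -0.74 in wild type. Arl15 was at -0.88 (SE 0.18, adjusted *P* = 0.0143), beside -0.88. For Vps13a the knockout estimate was -0.37 (SE 0.13, adjusted *P* = 0.135).

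The 24 genes were chosen by their p in wild type. That choice can by itself bring estimates nearer 0 in the knockout, so such estimates are not read as a result. The interaction of treatment and genotype was called by edgeR for 86 genes in the table (0.575%), and 5 of the 24 were among them, although this test also uses the wild-type values that chose the genes. Sept11 had a log2FC of 0.43 in wild type and -0.24 in the knockout (difference -0.66, SE 0.11, adjusted *P* = 0.0117). Katnal2 had 1.74 and -1.06 (adjusted *P* = 0.0172), Fam214a 0.43 and -0.15 (0.0437), Cdk5rap3, a protein of the UFM1 conjugation pathway, 0.35 and -0.11 (0.0462), and the transcription factor Klf7 -0.40 and 0.19 (0.0437). Mt1 had 1.53 and -0.52, a difference that did not pass the test (adjusted *P* = 0.0603). Mean levels with saline also differed between the genotypes. In WT_PBS and KO_PBS they were 62.5 and 81.0 CPM for Sept11, 0.683 and 3.15 for Katnal2 and 33.3 and 40.9 for Fam214a. They were 21.5 and 23.4 CPM for Cdk5rap3, 16.1 and 14.2 for Klf7 and 11.4 and 39.2 for Mt1. The part of these starting levels in the interactions was not tested.

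The 2 genotypes were also set side by side over the whole table. Of the 965 genes at an unadjusted p under 0.05 in wild type, 461 (47.8%) had the same sign in the knockout, beside 50.05% of all genes tested. In the knockout 17.7% of genes had an unadjusted p under 0.05. Those with such a p in both genotypes numbered 189, of which 87 had the same sign and 102 the opposite sign. The list medians also stood apart in places: 0.41 in wild type and 0.06 in the knockout for glucocorticoid and fasting genes, 0.16 and 0.02 for the proteasome, 0.30 and -0.56 for developmental and denervation genes, -0.20 and 0.27 for vessel markers, and 0.22 and -1.63 for macrophage and myeloid genes. Other medians lay close, such as 0.21 and 0.28 for fast sarcomere genes and -0.78 and -0.79 for bone and cartilage markers. The differences of medians were not tested.

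**Figure D5:**
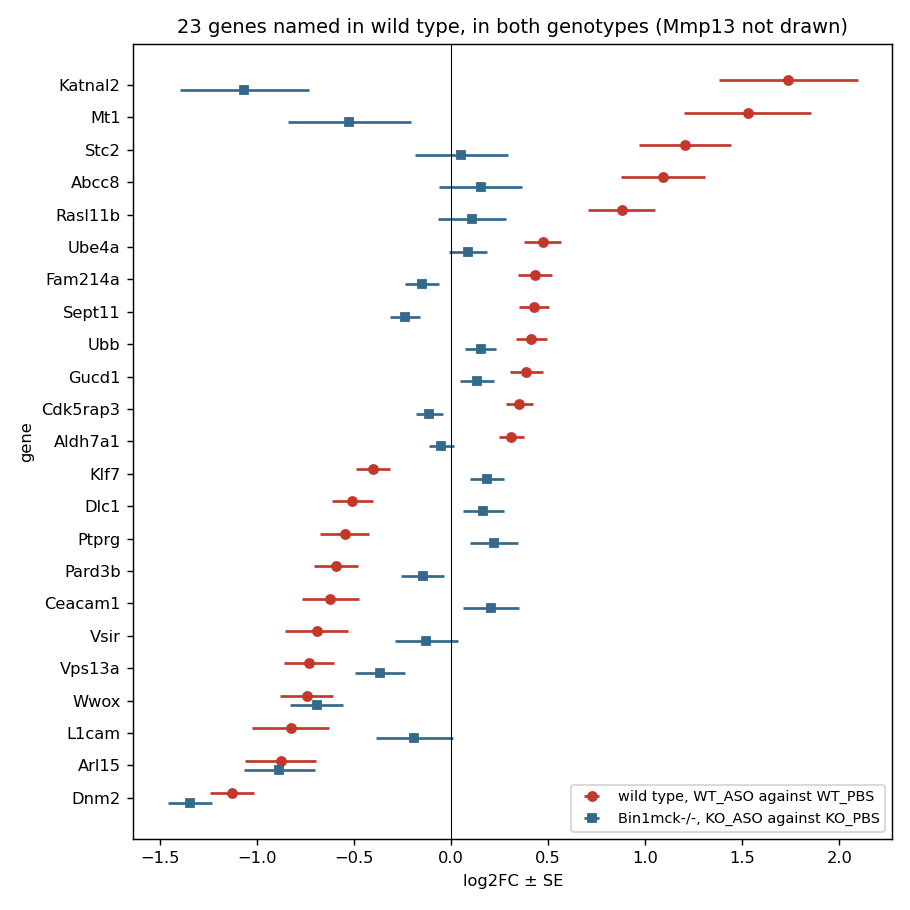
The log2FC ± SE of ASO1 against saline (horizontal) for the 23 genes named by the smallest p in wild type, Mmp13 not drawn, in wild-type mice (red circles) and Bin1mck-/- mice (blue squares), 4 mice per group. Wwox, Arl15 and Dnm2 lie at like values in both genotypes, whereas Sept11, Katnal2, Fam214a, Cdk5rap3 and Klf7 lie on opposite sides of 0; the wild-type values chose the genes.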

How the data were processed

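Reads from stranded mRNA libraries of tibialis anterior (RNA isolated with TRI Reagent, per the labels) were processed by the authors, who deposited raw read counts per Ensembl gene without normalization. Per the submitters' processing notes, HTSeq 0.6.1p1, STAR 2.5.3a, Bowtie2 2.2.8 and cutadapt 1.10 were used with the build GRCm38. Their roles and the strand setting were not given in the sources used here. All 29730 identifiers matched GENCODE symbols. Wild-type totals ran from 28672069 to 40862854 counts.

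Genes were filtered with filterByExpr in edgeR 4.0.16 (R 4.3.3), scaled by TMM (trimmed mean of M values) and fitted with a robust quasi-likelihood model to all 16 samples. Benjamini-Hochberg adjustment ran over the 14960 genes tested, at a threshold of 0.05, and the common biological coefficient of variation was 18.7%. The SE was the size of the log2FC over the square root of F, and 95% intervals used its t quantile. CPM values use library sizes after TMM. The fit was tested on simulated data. DESeq2 1.42.0, limma 3.58.1, other scalings, filters and leaving out each sample were alternatives.

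Genes were named by rule: Dnm2 and any edgeR call, the 12 higher and 12 lower genes of smallest p whose groups did not overlap at a mean of at least 1 CPM in a group, the 6 leading DESeq2 calls, the member of smallest p in each list, and the dynamins, Bin1 and Mtm1. Other names were picked after their values were seen. The comparison, its members and the gene lists were chosen with earlier results of these data known. Among the named genes, Dnm2, Cdk5rap3, Aldh7a1, Gucd1, Wwox, Vsir, Ceacam1, Pacsin3, Dnm1, Dnm3, Bin1, Stab1, Zfp36, Myl3, Aldoa and Scx overlap a gene on the opposite strand that had, on average, 10 counts or more. Reads of near-identical copies, such as haemoglobin or ribosomal protein genes, carry that uncertainty.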

Additional observations from a re-analysis of the deposited data

Results flagged for a closer look

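Among 116 groups of 4 samples (58 named genes, WT_PBS and WT_ASO), 6 held a sample apart from the other 3 by Dixon's 95% criterion, where chance gives about 1 in 20. The samples were WT_ASO_4 for Rasl11b at 2.75 CPM (others 3.59 to 3.67), WT_ASO_3 for Pacsin3 at 383 CPM (others 284 to 299.95) and for the neutrophil gene S100a9 at 1.24 CPM (others 0.0327 to 0.174), WT_PBS_4 for Mylk2, the kinase of fast muscle myosin, at 1129.6 CPM (others 1502 to 1561), WT_ASO_1 for Myh11 at 52.8 CPM (others 37.1 to 38.7) and WT_PBS_1 for Ngfr at 1.93 CPM (others 1.01 to 1.103).

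For 9 named genes the response to ASO1 differed between the genotypes by the edgeR interaction test, beside 0.575% of all genes tested. The 9 were named for the smallest p in wild type, over the table or in their list, and this test also uses the wild-type values. The difference, knockout minus wild type on the log2 scale, was -0.66 for Sept11, -0.46 for Cdk5rap3, -0.58 for Fam214a, -2.80 for Katnal2 and 0.59 for Klf7. It was -3.66 for Sox11, with a log2FC of 1.90 in wild type and -1.76 in the knockout (adjusted *P* = 0.00344). It was -0.60 for Ctsl (0.24 and -0.36, adjusted *P* = 0.0405), 2.26 for Cxcl9 (-1.14 and 1.12, adjusted *P* = 0.0314) and -2.05 for the macrophage scavenger receptor gene Cd163 (0.48 and -1.58, adjusted *P* = 0.0391). None of these 9 passed the edgeR test in wild type alone. Mean CPM in WT_PBS and KO_PBS was 0.0557 and 2.24 for Sox11 and 132 and 174 for Ctsl. It was 2.51 and 1.56 for Cxcl9 and 4.04 and 11.4 for Cd163, and the part of these starting levels was not tested.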

How the results depend on the processing

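Dnm2 was called under each alternative run, with a log2FC from -1.18 with library totals to -1.11 with limma-voom, and from -1.20 to -1.07 when each wild-type sample was left out in turn. The number of DEGs was 1 with other size factors, library totals, a minimum mean of 1 CPM, the wild-type samples alone and limma-voom. It was 3 with no filter (Dnm2, Vps13a and Mmp9) and 35 with DESeq2. Leaving out samples gave 1 to 4, the 4 without WT_PBS_2 (Dnm2, Mmp13, Ibsp and Tnn). With a replicate block it was 2 (Dnm2 and Mmp13), with 1242 genes at an unadjusted p under 0.05; same-numbered wild-type samples had correlated deviations of 0.0689 to 0.361 in 4 pairs, not all over 0.1, and the labels give the numbers no shared source, so they were not taken as pairs. All 8 of 8 samples correlated best with their own number. Under the block, lower mitochondrial transcripts were 9 and higher ribosomal genes 9, beside 6 each. Genes at an unadjusted p under 0.05 numbered 554 without WT_PBS_4 to 1436 without WT_ASO_4.

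Genes inside a 2-fold bound numbered 11625 to 11971 when samples were left out, and of the 24 genes 11 had the same sign in the knockout with library totals, beside 13. Members higher at an unadjusted p under 0.05 then ran from 5 to 15 for the glucocorticoid list, 10 to 20 for the proteasome, 2 to 9 for atrophy and autophagy and 3 to 6 for developmental and denervation genes, and lower vessel markers from 1 to 6. With library totals the proteasome count was 9, atrophy 3 and developmental 3. With the wild-type samples alone, vessel markers were 3 and developmental genes 3. The median log2FC of all genes was 0.0040 with TMM and -0.044 with library totals. No called result changed sign. Estimates near 0 did, such as Mtm1, at -0.19 to 0.0064 when samples were left out. So did the medians of the slow sarcomere, tendon, fatty acid, oxidative phosphorylation, clock, interferon and immediate early lists. The nerve median, 0.45 with all samples, also did and was -0.01 without WT_ASO_4.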
